A study of Mus musculus with 14 samples.

Results

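The collagen chains are the genes whose symbols follow the pattern of Col, a type number, a and a chain number. The deposited count table of mouse neck skin held 44 of them among 35327 named genes, and 43 passed the filter on low counts. The remaining chain, Col9a1 of the cartilage collagen type IX, had 47 counts in untreated library 1, 6 in isotype library 3 and 1 in cKO library 2, and none elsewhere. By the structure of the protein they were sorted into 11 fibrillar chains, 6 basement membrane chains, 6 beaded filament chains and 9 FACIT chains (fibril-associated collagens with interrupted triple helices). The other chains were the anchoring fibril chain Col7a1, 3 short chain network chains, 4 transmembrane chains, 2 multiplexins, and Col26a1 and Col28a1.

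Polyadenylated RNA was sequenced from frozen, cryosectioned neck skin of female mice in 14 libraries of 5 groups, with 1 mouse per sample by the series' design text. The untreated group (n = 2) was C57BL/6J skin at 6 weeks, and its library names differ only by a suffix. All other groups (n = 3 each) received MC903, the vitamin D analogue calcipotriol that inflames skin, for 6 days at 1 nmol in 100 µL a day. The isotype and MAR1 groups were C57BL/6J mice of 6 weeks given 20 µg of a control antibody or of MAR1, an antibody to the high-affinity IgE receptor used against basophils, with 3 injections ahead of MC903 and then one every other day. The fl/fl group was C57BL/6J Il4ra fl/fl, and the cKO group Pdgfra-Cre/Il4ra fl/fl, which is meant to lose the IL-4 receptor alpha chain in cells that express Pdgfra, fibroblasts among them. Both were 6 to 7 weeks old and had no injections. No MC903-free mice carried the floxed allele or had injections, and whether vehicle was put on the untreated skin is not stated.

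Collagens are proteins of chains wound into triple helices. Fibrillar collagens I, III and V form the load-bearing fibrils of the dermis and are made mainly by fibroblasts, while collagen IV networks underlie epidermis and vessels. Collagen VI forms beaded filaments around cells, FACIT collagens coat the fibrils, collagen VII anchors the epidermal basement membrane to the dermis, and collagen XVII is a transmembrane protein of basal keratinocytes.

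Totals were 34.3 to 55.3 M counts in the untreated, isotype and fl/fl libraries, 16.5 to 30.8 in cKO and 5.78 to 10.6 in MAR1. Il4ra, the targeted gene, stood at 59.4 and 105 CPM (counts scaled to library size by TMM) in untreated skin, 196, 179 and 193 with isotype, 45.8, 23.3 and 9.02 with MAR1, 215, 145 and 176 in fl/fl and 70.7, 67.9 and 14.5 in cKO. It was lower in cKO than in fl/fl (log2 fold change -1.81 ± 0.57 SE, adjusted p = 0.043) and also in MAR1 than with isotype (-2.86 ± 0.60, adjusted p = 0.002), although no MAR1 mouse carries the deletion. The 1753 olfactory and vomeronasal receptor genes, sensory genes of the nose, took 6.92% ± 2.8 (SD) of counts in MAR1 and 1.51% ± 1.06 in cKO, against 0.369% ± 0.0888 with isotype, 0.058% ± 0.0162 in fl/fl and 0.163% ± 0.161 in untreated skin. Salivary gland markers took 0.0887% and 1.62% of counts in fl/fl libraries 1 and 2 and at most 0.00293% elsewhere. Skeletal muscle markers took 0.838% to 4.64% in fl/fl and 0.00203% to 0.329% in cKO. The Y-linked genes Ddx3y and Eif2s3y had 1973 and 1508 counts in cKO library 1 and none in the other cKO libraries, with at most 35 elsewhere, which goes against the female label of that library. Kdm5d (57 to 574 counts) and Uty (28 to 6898), also Y-linked, had counts in all 14 libraries, with Uty at 3655 to 4442 in MAR1. The defining markers of dermal fibroblasts and basal keratinocytes had counts in every group.

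All collagen chains together took 1.13% and 2.01% of library counts in untreated skin. They took 0.426% to 0.455% with isotype and 0.132% to 0.182% with MAR1, and these ranges did not overlap. In fl/fl they took 0.225%, 0.734% and 0.158%, and in cKO 0.642%, 0.597% and 0.162%, so both genotypes held libraries at either end of a range. The 12 dermal fibroblast markers, a list without collagens, took 0.481% and 0.596% in untreated skin, 0.162% to 0.217% with isotype, 0.0964% to 0.134% with MAR1, 0.107% to 0.284% in fl/fl and 0.116% to 0.198% in cKO. In such bulk tissue, fewer cells of a type and less RNA per cell cannot be told apart.

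**Figure D1:**
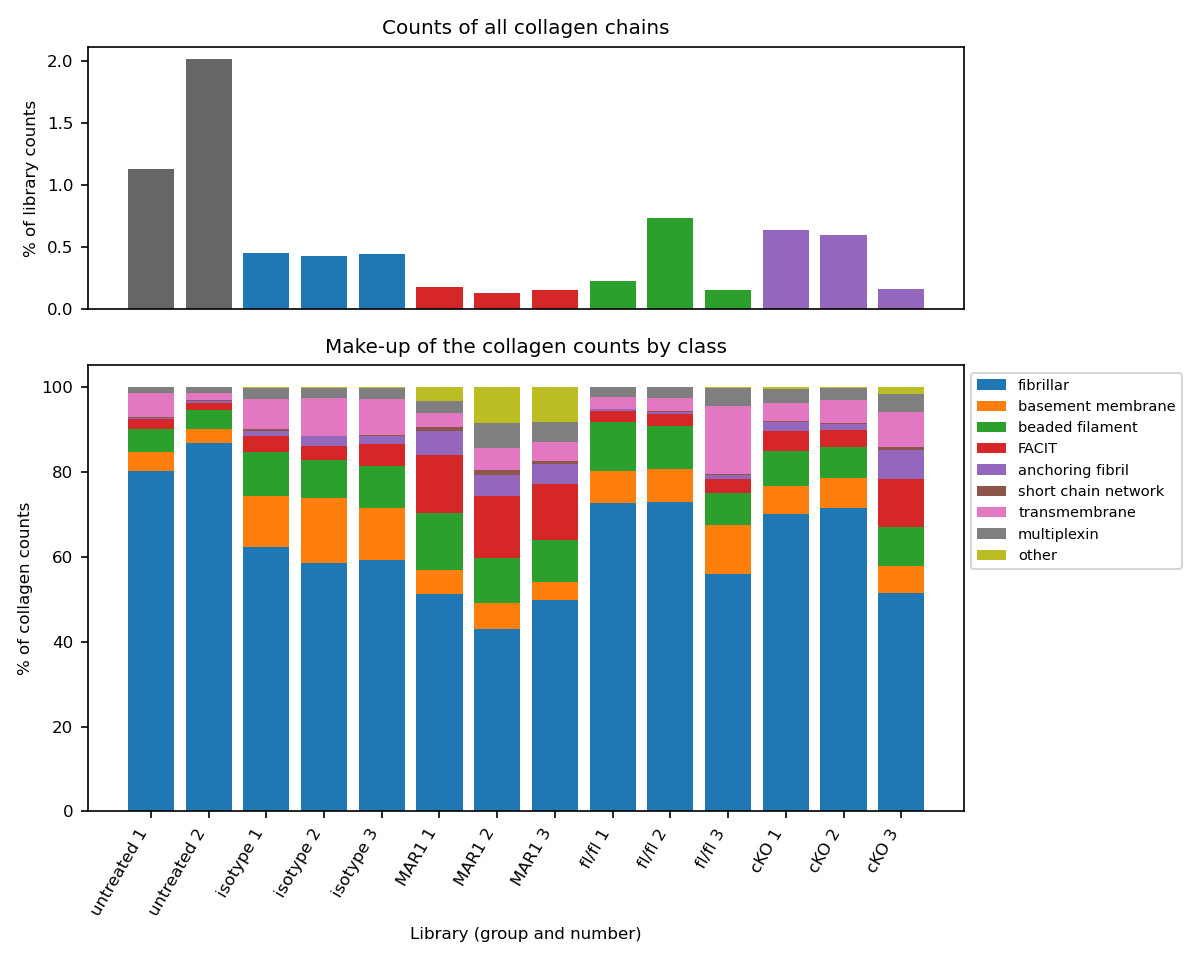
Bars give the counts of all collagen chains as a percentage of library counts (top) and each class as a percentage of the collagen counts (bottom) in each of the 14 libraries. The fibrillar share is 80.3% and 86.9% in the untreated libraries and 43.1% to 51.3% in the MAR1 libraries.

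Fibrillar chains made up 80.3% and 86.9% of the collagen counts in untreated skin. With isotype they made up 58.6% to 62.4%, and with MAR1 43.1% to 51.3%. The share was 72.8%, 72.9% and 55.9% in fl/fl and 70.1%, 71.5% and 51.4% in cKO. Basement membrane chains took 3.11% and 4.32% in untreated skin, 12% to 15.3% with isotype, 4.28% to 6.01% with MAR1, 7.38% to 11.6% in fl/fl and 6.42% to 7.08% in cKO. Beaded filament chains took 4.51% and 5.56% in untreated skin and 7.33% to 13.5% over the MC903 libraries. FACIT chains took 13% to 14.6% with MAR1, 3.32% to 5.16% with isotype, 2.77% to 3.21% in fl/fl, 3.86%, 4.66% and 11.3% in cKO and 2.2% and 1.78% in untreated skin. These shares add to a fixed sum, so a rise of one class lowers the others.

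Per kilobase of exon, Col3a1 was the most abundant chain in untreated skin at 805 ± 109 CPM per kb (SD, n = 2), followed by the chains of collagen I, Col1a2 at 652 ± 361 and Col1a1 at 614 ± 348. These neighbours did not differ beyond their spread. Col17a1 (77.6 ± 38.8), Col6a1 (58.8 ± 1.38), Col4a1 (46.3 ± 3.21) and Col6a2 (42.8 ± 1.18) came next. By group mean the leading 3 chains kept their order with isotype, in fl/fl and in cKO. Col1a2 and Col1a1 did not differ beyond their spread in cKO (137 ± 81.9 and 135 ± 91.7) or in fl/fl (110 ± 87.4 and 96.4 ± 85.9). In MAR1 the order was Col1a2 (38.6 ± 11.3), Col1a1 (34.9 ± 11.8), Col26a1 and then Col3a1 (19.3 ± 5.83), with n = 3. Among the low chains, Col2a1 and Col10a1, known from cartilage and growth plate, and the fibrillar chain Col24a1 stayed at or under 2.91 CPM in every library.

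**Figure D2:**
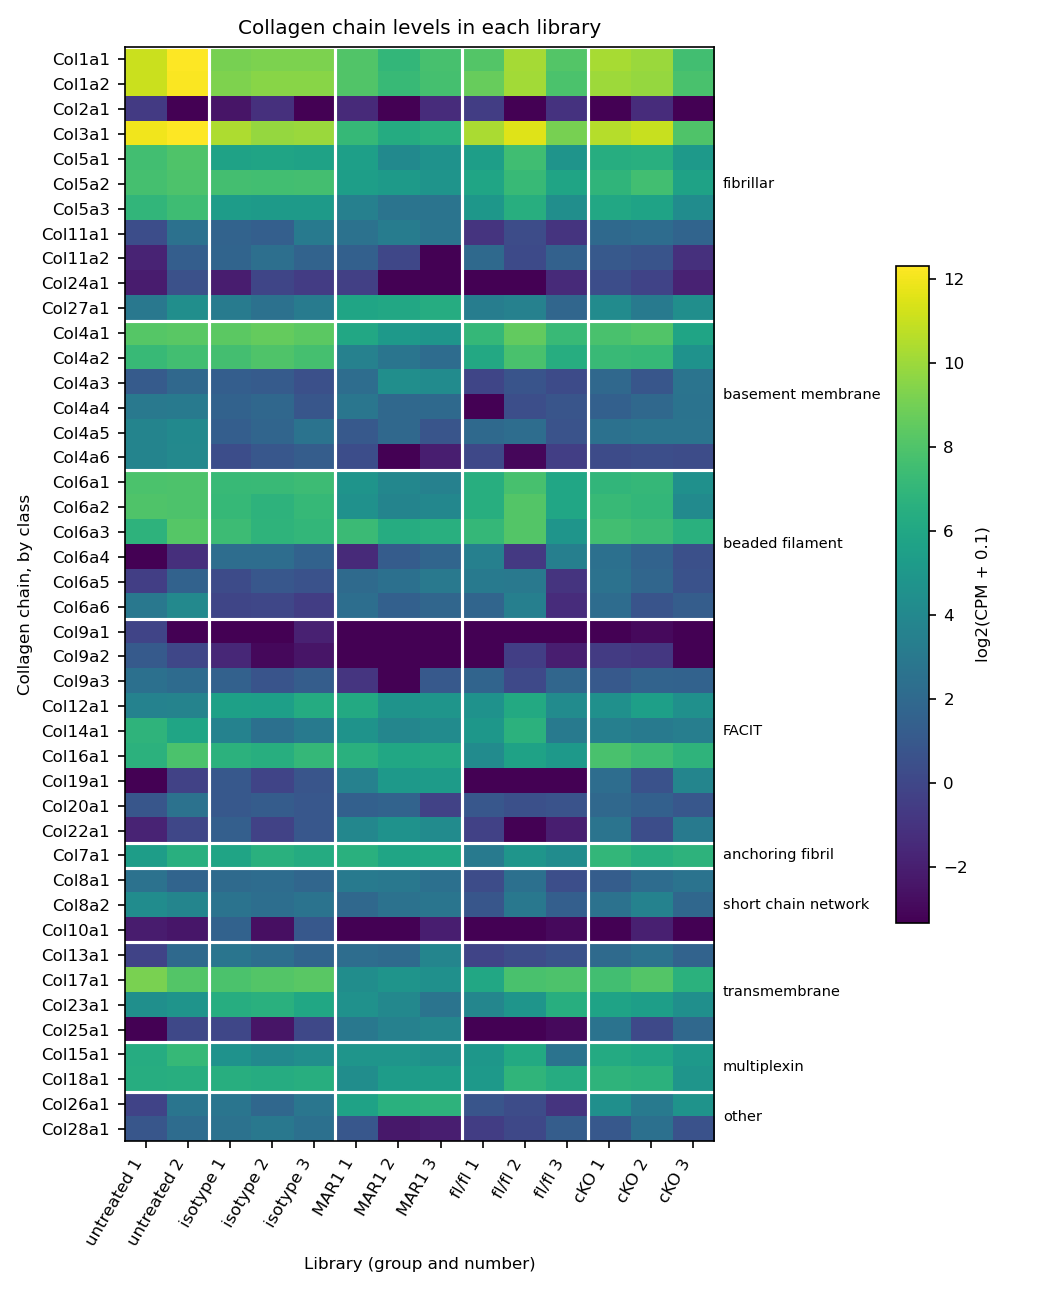
Colour gives log2(CPM + 0.1) of the 44 collagen chains (rows, by class) in the 14 libraries (columns). Col1a1, Col1a2 and Col3a1 are brightest in the untreated libraries, while Col19a1, Col22a1, Col25a1 and Col26a1 are brighter in MAR1 than with isotype.

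Promoter letters are shown for 4 chains on which the comparisons turn. RefSeq windows of 300 bases (250 before the start to 50 after it, build GRCm38.p6) were held for 35 of the 44 genes, 38 windows in all. TATAAA, read on both strands as were all motifs, was in 13.2% of these windows and in 13.6% of all 32851 windows. CCAAT was in 34.2% against 37.4%, and GGGCGG in 60.5% against 35.7%. None of these motifs contains another. The windows of Col4a1 and Col4a2, which encode partner chains, lie on opposite strands and overlap by 78 bases. The 250 bases before the start are shown for a pair of fibrillar chains and the keratinocyte chain that were lower with MAR1, and for a FACIT chain that was higher in cKO, with motif matches in capitals.
Col1a2 (chr6:4505368-4505617, plus strand): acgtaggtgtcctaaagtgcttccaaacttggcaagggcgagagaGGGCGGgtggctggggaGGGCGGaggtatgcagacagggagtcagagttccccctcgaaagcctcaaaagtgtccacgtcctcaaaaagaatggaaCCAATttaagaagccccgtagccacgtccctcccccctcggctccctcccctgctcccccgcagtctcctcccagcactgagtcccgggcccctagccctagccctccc
Col3a1 (chr1:45311288-45311537, plus strand): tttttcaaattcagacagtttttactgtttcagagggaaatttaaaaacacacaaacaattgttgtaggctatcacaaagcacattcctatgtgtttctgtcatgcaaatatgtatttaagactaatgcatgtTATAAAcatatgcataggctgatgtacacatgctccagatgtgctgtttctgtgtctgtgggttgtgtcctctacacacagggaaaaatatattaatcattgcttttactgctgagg
Col17a1 (chr19:47692043-47692292, minus strand): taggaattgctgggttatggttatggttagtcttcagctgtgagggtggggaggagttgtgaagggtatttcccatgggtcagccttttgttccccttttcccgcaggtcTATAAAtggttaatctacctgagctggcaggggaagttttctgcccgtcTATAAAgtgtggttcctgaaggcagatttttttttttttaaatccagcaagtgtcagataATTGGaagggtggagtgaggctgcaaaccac
Col16a1 (chr4:130047590-130047839, plus strand): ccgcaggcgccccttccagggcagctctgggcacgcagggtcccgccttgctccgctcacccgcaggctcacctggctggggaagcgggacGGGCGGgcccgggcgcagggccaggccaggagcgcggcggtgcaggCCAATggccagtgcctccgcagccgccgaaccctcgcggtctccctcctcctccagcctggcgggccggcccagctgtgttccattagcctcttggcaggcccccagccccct
Col3a1 held TATAAA 117 bases before the start and neither of the other motifs, and Col17a1 held it 140 and 91 bases before the start, with CCAAT on the reverse strand at 31. Col1a2 and Col16a1 held GGGCGG and CCAAT, with CCAAT 109 and 113 bases before the start. A match is a description of the letters only.

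What MC903 did to the chains was read in isotype and in fl/fl, each against the same untreated libraries, so these comparisons share their controls. Collagen I stood lower after MC903 in both, without passing the test. Col1a1 was at 2180 and 5100 CPM in untreated skin, 555, 613 and 595 with isotype and 279, 1160 and 276 in fl/fl. Col1a2 was at 2120 and 4850, then 614, 736 and 753, and 416, 1120 and 236. Neither MC903 group overlapped the untreated libraries for these chains. With isotype the log2 estimate was -2.63 ± 0.74 for Col1a1 (adjusted p = 0.074) and -2.32 ± 0.66 for Col1a2 (adjusted p = 0.079). In fl/fl it was -2.67 ± 0.74 (adjusted p = 0.084) and -2.56 ± 0.67 (adjusted p = 0.07). Col3a1, the partner fibril of collagen I, was at 4050 and 4910 CPM in untreated skin, 1350, 918 and 991 with isotype and 1270, 3020 and 553 in fl/fl. Its log2 estimate was -2.04 ± 0.72 with isotype (adjusted p = 0.15) and -1.47 ± 0.71 in fl/fl (adjusted p = 0.29). Col5a1, which helps to start collagen I fibrils, was at 191 and 255 CPM, then 51.1, 56.1 and 50.8 with isotype and 43.9, 182 and 27.8 in fl/fl. Its partner Col5a2 was at 205 and 243, then 196, 189 and 196, and 59, 150 and 56.3. The isotype libraries thus held Col5a2 just under the untreated range and Col5a1 far under it.

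The called chain in isotype against untreated was Col14a1, a FACIT collagen of the fibril surface. It was at 114 and 59.4 CPM in untreated skin and at 11.9, 5.36 and 8.59 with isotype, a log2 fold change of -3.34 ± 0.72 (adjusted p = 0.027), or 10.1-fold lower. In fl/fl it was at 31.4, 104 and 8.63 CPM, which overlapped untreated skin (-0.85 ± 0.69, adjusted p = 0.56). The call was 1 of 43 chains, where 3.08% of all genes were called (1.35% higher, 1.72% lower), and it was lost when any isotype library, untreated library 1 or MAR1 library 2 was left out. It was also lost with the untreated libraries summed, with a replicate block and with the receptor gene share as a covariate. The count of called chains was 8 without fl/fl library 2, 6 without fl/fl library 3, 4 without cKO library 3 and 2 without fl/fl library 1. In fl/fl against untreated the called chain was Col16a1, a FACIT collagen. It was at 106 and 234 CPM in untreated skin and 18.3, 51.2 and 34.9 in fl/fl (-2.29 ± 0.45, adjusted p = 0.021), and at 106, 89.6 and 136 with isotype (-0.62 ± 0.44, adjusted p = 0.47). This was again 1 of 43 chains, against 1.72% of all genes (0.769% higher, 0.95% lower), and it was lost without untreated library 2, with only these groups in the fit, with a replicate block and without fl/fl libraries 1 and 2. The count was 8 without fl/fl library 2, 6 without untreated library 1 and 3 without cKO library 3. With isotype 14 chains and in fl/fl 18 chains had an unadjusted p under 0.05, and DESeq2 called 12 and 13 chains. With isotype 25 of 43 chains did not overlap untreated skin, 8 higher and 17 lower, beside 48.8% of all genes (26.2% higher, 22.6% lower). In fl/fl 22 did not, 2 higher and 20 lower, beside 28% of all genes (12.6% higher, 15.4% lower). The median log2 fold change over the chains was -0.58 with isotype and -1.32 in fl/fl, beside 0.11 and 0.00 over all genes tested.

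Another FACIT chain, Col12a1, stood the other way. It was at 12.3 and 12.8 CPM in untreated skin, 46.9, 44.8 and 77.9 with isotype and 24.8, 72 and 18.7 in fl/fl. Every MC903 library of these groups was above both untreated ones, by 2.17 ± 0.63 on the log2 scale with isotype (adjusted p = 0.083) and 1.62 ± 0.61 in fl/fl (adjusted p = 0.18). Relative to Col1a1 in the same library, the log2 ratio of Col12a1 counts was -7.47 and -8.63 in untreated skin, -3.57, -3.78 and -2.93 with isotype and -3.49, -4.01 and -3.88 in fl/fl. Basement membrane chains differed among themselves. Col4a1 and Col4a2, which form the common collagen IV helix, were at 291 and 321, and 150 and 190 CPM in untreated skin, and at 328, 397 and 336, and 204, 262 and 206 with isotype (log2 estimates 0.21 ± 0.59 and 0.40 ± 0.65, adjusted p = 0.89 and 0.79). Col4a5 and Col4a6, chains of the minor collagen IV networks, stood lower in both MC903 groups, at -1.97 ± 0.61 and -3.06 ± 1.18 with isotype (adjusted p = 0.1 and 0.19).

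**Figure D3:**
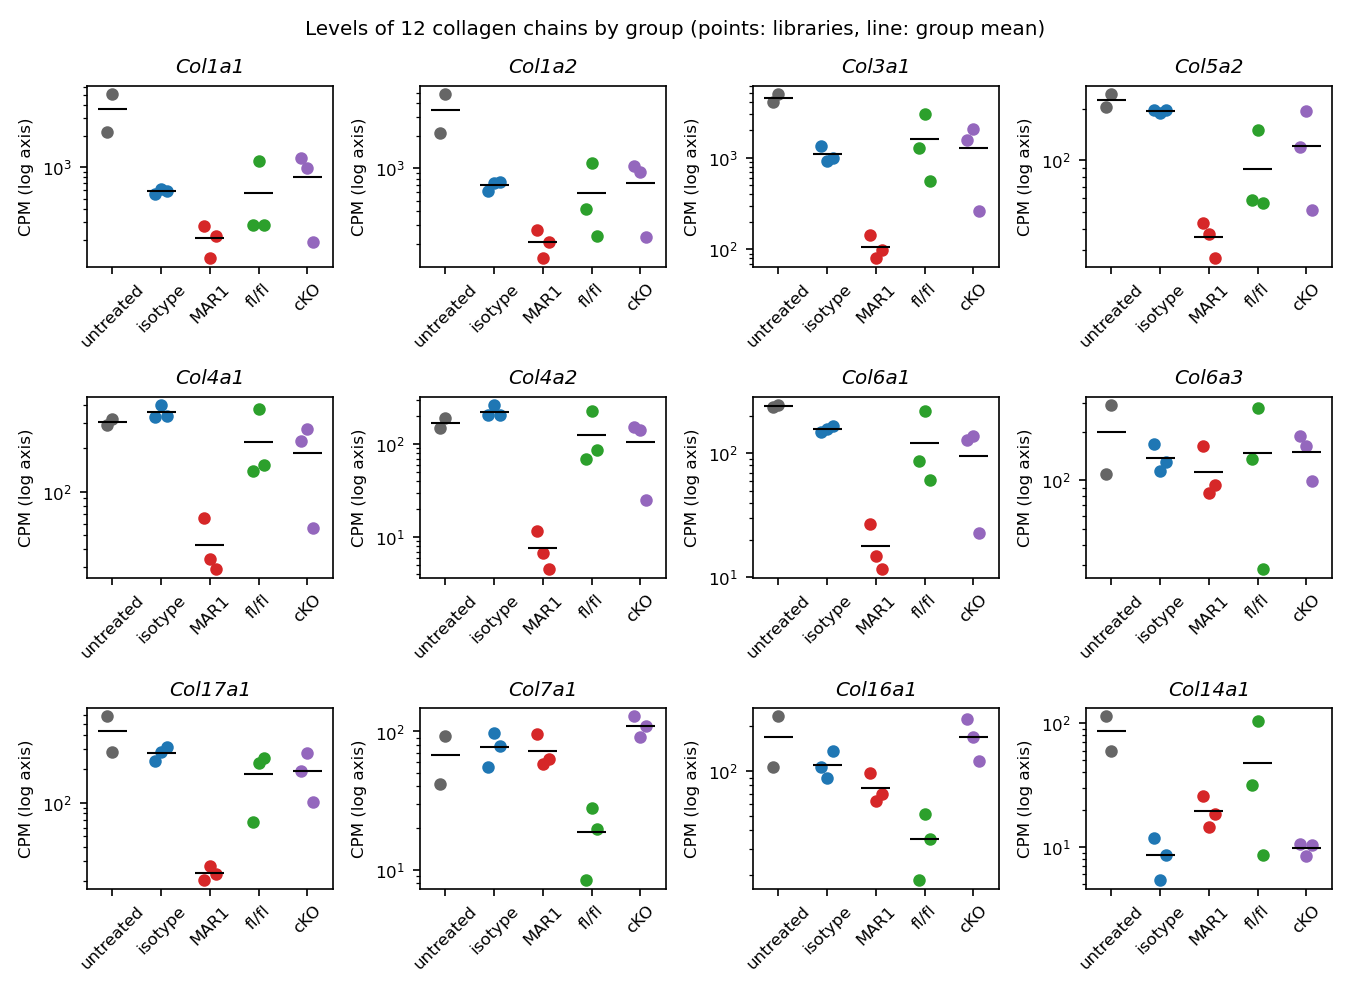
Points give CPM (log axis) of 12 chains in each library by group, and lines the group means (n = 2 in untreated, 3 elsewhere). Col1a1, Col1a2, Col3a1, Col5a2, Col4a1, Col4a2, Col6a1 and Col17a1 lie lower in every MAR1 library than in any isotype library.

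MAR1 against isotype changed 18 of 43 chains, 6 higher and 12 lower. Of all genes 49% were called (22.6% higher, 26.5% lower). Of the chains 27 did not overlap between the groups, 11 higher and 16 lower, beside 68.6% of all genes (32.1% higher, 36.4% lower). Their median log2 fold change was -0.64 (-0.53 with the chain that had no counts in a group set to its bound), beside 0.00 over all genes tested. RLE scaling shifted the all-gene median from 0.00 to 0.57 on the log2 scale. Under it the split was 9 higher and 10 lower, and DESeq2 gave 10 and 10. The MAR1 libraries also held the fewest counts and the highest share of receptor genes. Mitochondrial transcripts took 0.129% to 0.344% of their counts against 2.12% to 2.33% with isotype (0.477% in cKO library 3). The part of RNA quality or genomic DNA in these values was not tested. Once the receptor gene share entered the model on a log2 scale, no chain was called in edgeR (1 had an unadjusted p under 0.05) and no gene at all, but that share lies higher in every MAR1 than in any isotype library, so it and the antibody cannot be told apart.

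Of the chains of dermal fibrils, Col3a1, Col5a2, Col5a3 and Col1a2 fell, while Col1a1 and Col5a1 did not pass the test. Of the 12 dermal fibroblast markers 8 fell and 1 rose, beside 26.5% and 22.6% of all genes. These markers were lower in their summed share as given above, and their part in these values was not tested. Col3a1 was at 143, 79.8 and 98.7 CPM with MAR1 against 1350, 918 and 991 with isotype, a log2 fold change of -3.34 ± 0.71 (adjusted p = 0.0021), or 10.1-fold lower. Col5a2 was at 43.1, 37.2 and 26.8 against 196, 189 and 196 (-2.44 ± 0.47, adjusted p = 0.0012). Col1a2 was at 267, 146 and 207 against 614, 736 and 753 (-1.76 ± 0.61, adjusted p = 0.029), a call lost with RLE scaling, with DESeq2 and without isotype library 2 or 3 or MAR1 library 2 or 3. Its partner Col1a1 was at 270, 132 and 218 against 555, 613 and 595 and did not pass (-1.51 ± 0.67, adjusted p = 0.074). Col5a1 did not pass either, at 45.7, 17 and 25.1 against 51.1, 56.1 and 50.8 (-0.84 ± 0.60, adjusted p = 0.25). Col5a3, another collagen V chain, fell (-2.21 ± 0.54, adjusted p = 0.0048). Over the 11 fibrillar chains 4 fell, and Col27a1, a fibrillar collagen known from cartilage, rose (3.15 ± 0.52, adjusted p = 5.0e-04). Of 8 cartilage markers Sox9, Hapln1 and Comp rose too, where 22.6% of all genes rose, and the others did not pass the test. The list took 0.0117% to 0.0208% of counts with MAR1 against 0.00291% to 0.00722% with isotype. None of the 8 was at 0 in all libraries of either group, but some were very low. Acan was at 0.688, 0 and 0.301 CPM with MAR1 against 0.0285, 0.144 and 0.0292, and Snorc at 0, 0 and 0.15 against 0, 0.0576 and 0. Sox9 was the highest of the list in each of these libraries, at 85.3, 82.3 and 104 against 37, 26.8 and 68.4. Sox9 and Hapln1 were also called higher in cKO than in fl/fl, and the others were not called there. The part of these markers was not tested. Col2a1 and the collagen IX chains, also known from cartilage, were not called higher. Col2a1 stayed at or under 0.346 CPM in both groups. Col9a3 was at 0.43, 0 and 1.95 CPM with MAR1 against 2.83, 1.59 and 2.37 with isotype, and Col9a2 had no counts with MAR1.

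Collagen IV held the largest fall among the called chains. Col4a2 was at 11.7, 6.74 and 4.51 CPM with MAR1 against 204, 262 and 206 with isotype, a log2 fold change of -4.86 ± 0.68 (adjusted p = 2.9e-04), or 29.1-fold lower. Col4a1 was at 65.5, 33.9 and 28.9 against 328, 397 and 336 (-3.05 ± 0.57, adjusted p = 9.3e-04). Col4a3, a chain of specialised basement membranes, rose from 1.31 to 2.43 CPM with isotype to 4.73 to 20.8 with MAR1 (2.91 ± 0.68, adjusted p = 0.0039). Endothelial markers, also of cells that make collagen IV, took 0.122% to 0.165% of counts with MAR1 against 0.0338% to 0.0376% with isotype. Of the 7 markers Pecam1 rose, at 908, 1090 and 1260 CPM against 170, 168 and 171, while Cdh5 (-1.39 ± 0.52, adjusted p = 0.04) and Kdr (-1.58 ± 0.49, adjusted p = 0.017) fell and the other 4 did not pass the test. Their part in the collagen IV values was not tested. In the beaded filaments Col6a1 was at 26.8, 15 and 11.6 CPM against 149, 157 and 166 (-3.14 ± 0.62, adjusted p = 0.0015), and Col6a2 at 24, 13.1 and 14.9 against 142, 111 and 142 (-2.92 ± 0.70, adjusted p = 0.0047). Col6a3, the long chain of collagen VI, was at 163, 83.1 and 93.8 against 169, 114 and 130 (-0.28 ± 0.61, adjusted p = 0.71), and these ranges overlapped. Its estimate turned to 0.27 with RLE scaling.

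The epidermal chain Col17a1 was at 20.3, 27.4 and 23.3 CPM with MAR1 against 236, 284 and 315 with isotype (-3.56 ± 0.52, adjusted p = 3.1e-04), 11.8-fold lower. The 6 basal keratinocyte markers took 0.258% to 0.513% of counts with MAR1 against 1.67% to 2.18% with isotype, and 5 of 6 fell, beside 26.5% of all genes. None of them was at 0 in a whole group, and the part of these cells in the Col17a1 value was not tested. Col7a1, the anchoring fibril chain that keratinocytes and fibroblasts make, did not follow: it was at 95.5, 57.8 and 63.3 against 55.1, 98.1 and 79 (-0.10 ± 0.42, adjusted p = 0.85; 0.47 with RLE scaling). Col18a1, a multiplexin of basement membranes, was at 20.3, 39.9 and 42.2 against 87.5, 82.9 and 89.9 (-1.35 ± 0.51, adjusted p = 0.04). That call was lost with RLE scaling, with DESeq2 and without any single isotype or MAR1 library. Col23a1, a transmembrane chain, and Col28a1, a chain known from peripheral nerve, fell by 2.41 ± 0.63 and 3.12 ± 1.03 on the log2 scale (adjusted p = 0.0071 and 0.023), and the call of Col28a1 was lost without isotype library 2 or MAR1 library 2 or 3.

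Col19a1, Col22a1, Col25a1 and Col26a1, at low levels in the control groups, rose with MAR1 and also in cKO. Col26a1 was at 51, 98.8 and 110 CPM with MAR1 against 6.59, 3.69 and 6.98 with isotype (3.91 ± 0.74, adjusted p = 0.0012). Col19a1, a FACIT chain of muscle and brain, was at 11.6, 35.5 and 38 against 1.88, 0.807 and 1.67 (4.28 ± 1.21, adjusted p = 0.013). Col22a1, a FACIT chain of tissue junctions, was at 15.3, 25.4 and 18.5 against 2.51, 0.749 and 1.78 (3.55 ± 1.10, adjusted p = 0.017). Col25a1, a transmembrane chain of neurons, was at 7.65, 11.4 and 14.3 against 0.913, 0.0865 and 0.935 (4.10 ± 1.33, adjusted p = 0.021). With the receptor gene share as a covariate the estimates of Col19a1, Col22a1, Col25a1 and Col26a1 turned negative, to -2.40, -1.04, -1.98 and -0.19. The call of Col19a1 was lost without isotype library 2, that of Col22a1 without isotype library 2 or 3, and that of Col25a1 without any isotype library or MAR1 library 3. The receptor gene share was 3.87%, 7.54% and 9.36% in MAR1 libraries 1, 2 and 3 and at most 0.438% with isotype.

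**Figure D4:**
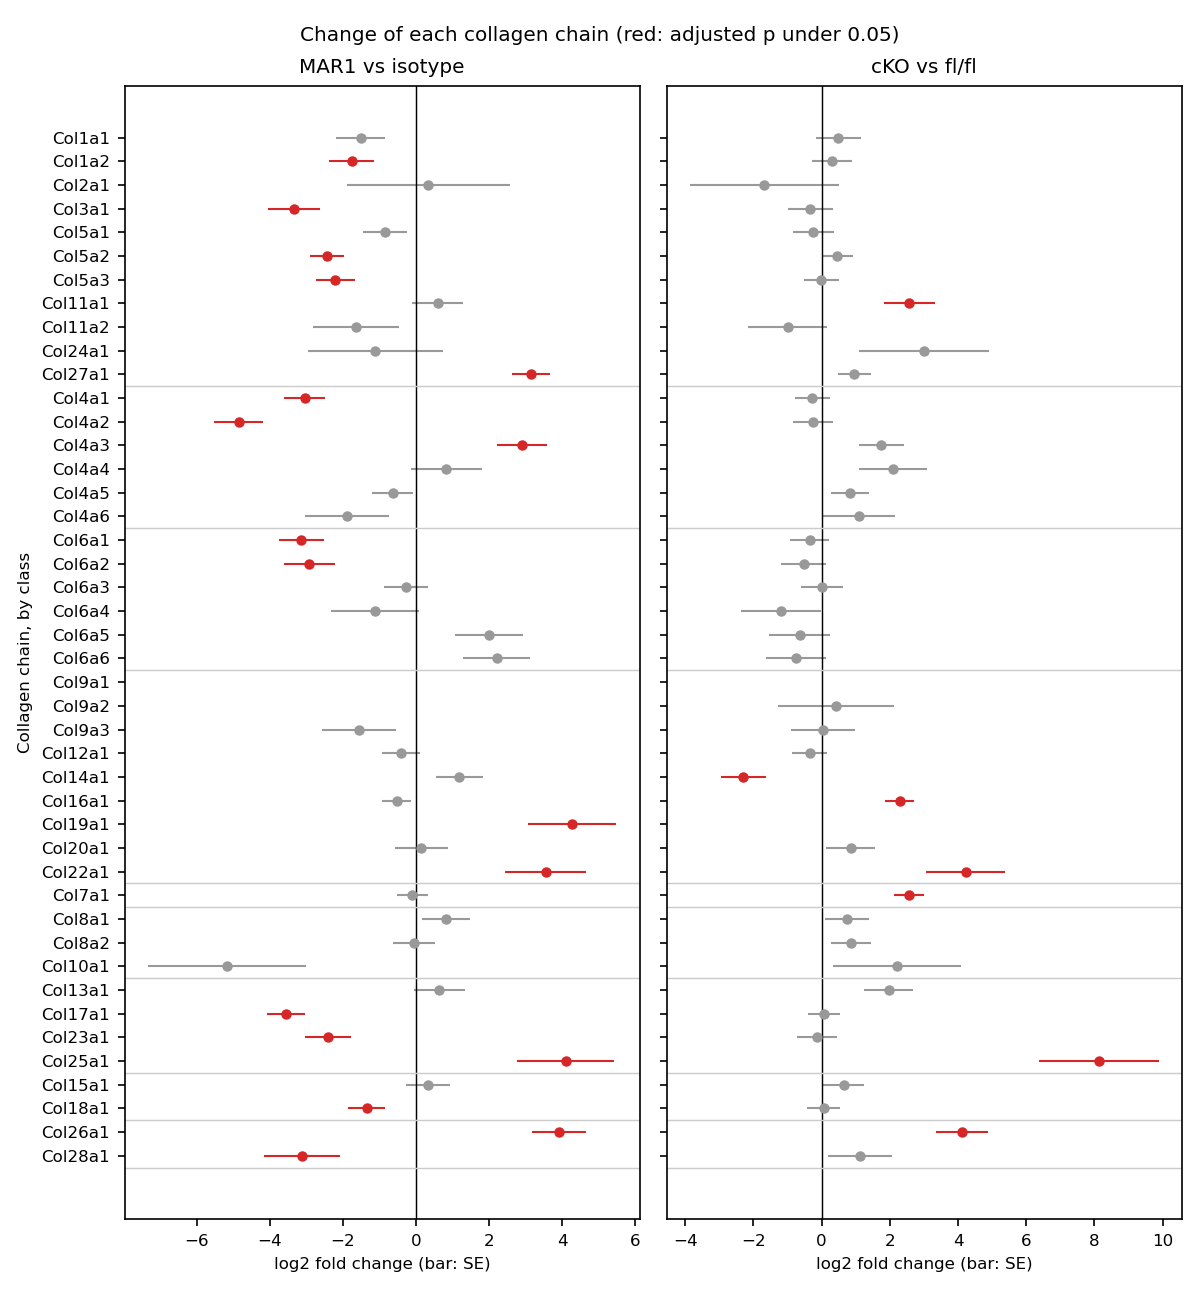
Points give the log2 fold change of each chain and bars its SE in MAR1 against isotype (left) and cKO against fl/fl (right), by class, with chains at an adjusted p under 0.05 in red. Chains that were not tested, or that had no counts in a whole group of the comparison (Col9a2 on the left, Col19a1 on the right), are not drawn.

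Count ratios between chains, partners of one helix or fibril among them, were set side by side within each library. The log2 ratio of Col4a1 to Col4a2 counts was 2.49, 2.33 and 2.68 in the MAR1 libraries, 0.68, 0.60 and 0.71 with isotype, and 0.58 to 1.13 in the 8 other libraries. For Col6a3 to Col6a1 it was 2.61, 2.47 and 3.02 with MAR1, 0.18, -0.46 and -0.35 with isotype, and 2.11 in cKO library 3, the highest outside MAR1. For Col3a1 to Col1a1 it was -0.92, -0.72 and -1.14 with MAR1 against 1.29, 0.58 and 0.74 with isotype. For Col1a1 to Col1a2 it was 0.02, -0.14 and 0.07 with MAR1 against -0.14, -0.26 and -0.34 with isotype, a smaller difference of 0.23, within -0.58 to 0.24 over all 14 libraries. Col6a1 to Col6a2 lay between -0.38 and 0.49 and overlapped between the groups. Relative to Col1a1, the mean ratio of Col5a2 was -2.50 with MAR1 against -1.60 with isotype, that of Col4a1 -2.31 against -0.74 and that of Col17a1 -3.07 against -1.09. With 3 libraries against 3 the exact permutation test cannot go below p = 0.1, two-sided, and p was 0.1 for all of these pairs but Col6a1 to Col6a2 (p = 0.4), or 0.346 after adjustment over 45 tests of 9 ratios. None passed the threshold. A ratio within a library does not depend on scaling, but it does not show which chain moved.

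**Figure D5:**
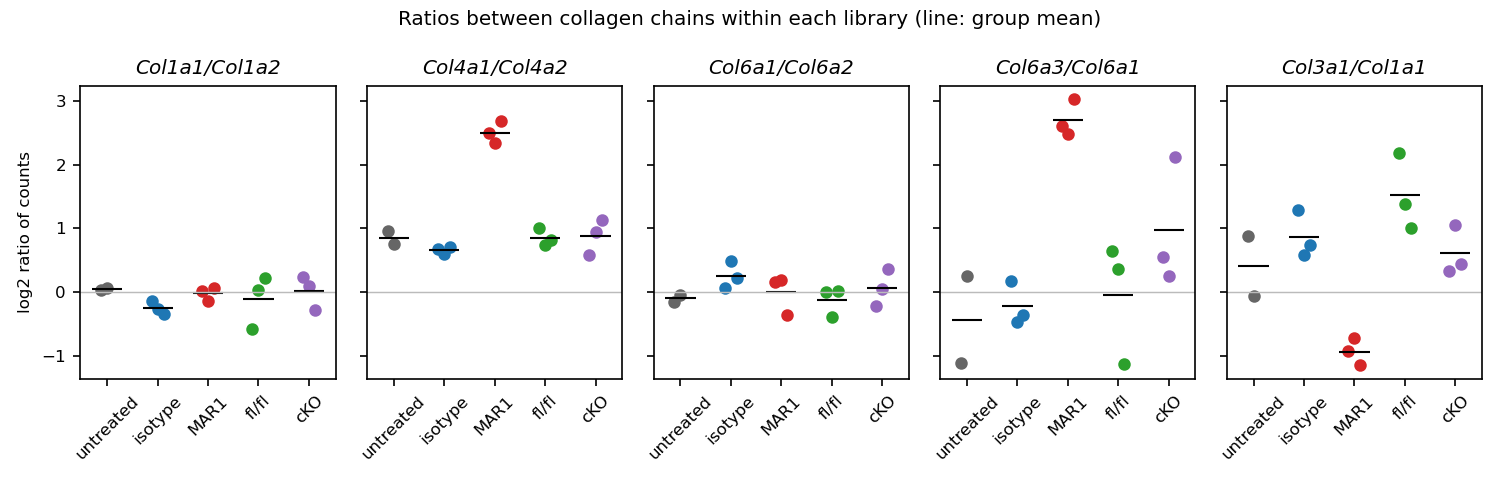
Points give the log2 ratio of the counts of a pair of collagen chains in each library by group, and lines the group means. Col4a1/Col4a2 lies at 2.33 to 2.68 in MAR1 and at 0.58 to 1.13 elsewhere, while Col1a1/Col1a2 and Col6a1/Col6a2 stay near 0 in every group.

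The cKO group was compared with fl/fl under the same MC903 course. For the major fibrillar chains no difference was detectable beyond the spread of the libraries. Col1a1 was at 1230, 986 and 190 CPM in cKO against 279, 1160 and 276 in fl/fl (log2 fold change 0.49 ± 0.66, adjusted p = 0.63), Col1a2 at 1040, 922 and 229 against 416, 1120 and 236 (0.30 ± 0.59, adjusted p = 0.76), and Col3a1 at 1540, 2040 and 259 against 1270, 3020 and 553 (-0.33 ± 0.65, adjusted p = 0.75). Here cKO library 3 and fl/fl libraries 1 and 3 were low and the ranges overlapped. Col4a1 and Col4a2 stood at 226, 272 and 55.6, and 152, 141 and 25.4 in cKO, against 139, 375 and 152, and 69, 225 and 86.2 in fl/fl (-0.27 ± 0.52 and -0.25 ± 0.58, adjusted p = 0.76 and 0.79). Col6a1, Col6a2 and Col6a3 had estimates of -0.35 ± 0.57, -0.53 ± 0.65 and 0.01 ± 0.61, and Col17a1 was at 192, 275 and 102 against 67, 224 and 249 (0.08 ± 0.47, adjusted p = 0.93).

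In this comparison 8 of 43 chains were called, 7 higher and 1 lower, where 18.7% of all genes were called (12.7% higher, 5.97% lower). In 12 chains every cKO library was above every fl/fl library, while 17% of all genes lay higher and 12.4% lower without overlap, 29.4% together. Col7a1 was at 129, 90.7 and 109 CPM in cKO against 8.35, 28 and 19.6 in fl/fl (2.56 ± 0.44, adjusted p = 0.0033), 5.88-fold higher. Col16a1 was at 223, 170 and 117 against 18.3, 51.2 and 34.9 (2.29 ± 0.42, adjusted p = 0.0038). For both, every fl/fl library was also under every isotype library. In untreated skin Col7a1 was at 41.9 and 92.7 CPM. Col14a1 was at 10.6, 8.5 and 10.3 against 31.4, 104 and 8.63 and was called lower (-2.30 ± 0.66, adjusted p = 0.029), although fl/fl library 3 lay within the cKO range. Without fl/fl libraries 1 and 2, which held salivary transcripts, its estimate was 0.48. Of the called chains, only Col7a1 and Col16a1 kept their calls in that fit. That fit leaves fl/fl library 3 alone in its group, which is then assumed to vary like the other groups. The Col14a1 call was also lost without any single cKO library, fl/fl library 1 or 2, MAR1 library 2 or untreated library 2. Other settings that lost it were only these groups in the fit, summed untreated libraries, a replicate block and a score of skeletal muscle markers as a covariate. Col11a1, a minor fibrillar chain, was at 4.01, 4.45 and 3.18 against 0.409, 1.12 and 0.414 (2.57 ± 0.75, adjusted p = 0.029), a call lost without cKO library 1 or 3 or fl/fl library 1. It was also lost with only these groups in the fit and with the muscle marker score as a covariate.

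The low chains seen in MAR1 rose here too. Col26a1 was at 22.3, 8.27 and 25.7 CPM against 1.67, 1.16 and 0.414 (4.11 ± 0.76, adjusted p = 0.0041). Col22a1 was at 6.31, 1.21 and 8.72 against 0.71, 0 and 0.148 (4.23 ± 1.16, adjusted p = 0.023), a call lost without cKO library 3 and with only these groups in the fit. Col19a1 was at 4.64, 1.41 and 13.5 CPM in cKO and had no counts in fl/fl, which at a floor of 3 counts per library makes it at least 82.3-fold higher (adjusted p = 0.0048). Col25a1 was at 6.2, 0.981 and 3.83 against 0, 0 and 0.0296, the last being 1 count (adjusted p = 0.0071). The calls of Col19a1, Col22a1, Col25a1 and Col26a1 were all lost without fl/fl libraries 1 and 2, the fit that leaves fl/fl library 3 alone. In the cKO libraries the receptor gene share was 1.49%, 0.466% and 2.58%. With that share as a covariate no chain was called (5 had an unadjusted p under 0.05), and the estimates of Col22a1 and Col26a1 turned to -0.92 and -0.27. The share was higher in every cKO than in any fl/fl library, so it and the genotype cannot be told apart. Skeletal muscle markers did not overlap either, at 0.838% to 4.64% of counts in fl/fl and 0.00203% to 0.329% in cKO. They and the genotype thus cannot be told apart. With a score of these muscle markers as a covariate, 6 of the 8 calls were kept, and those of Col11a1 and Col14a1 were lost. Without cKO library 1, whose sex label the Y-linked counts went against, 6 chains were called, and without cKO library 3 there were 5. The median log2 fold change over the chains was 0.46, beside 0.03 over all genes tested.

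The difference between these effects, cKO against fl/fl minus MAR1 against isotype, was called for 7 of 43 chains, 6 higher and 1 lower, where 7.96% of all genes were called (6.14% higher, 1.82% lower). The chains were Col4a1, Col4a2, Col5a2, Col7a1, Col16a1 and Col17a1, higher, and Col14a1, lower. RLE scaling shifted the all-gene median of this contrast from 0.41 to -0.05, and the call count to 5. No chain was called in edgeR without any single isotype library, without MAR1 library 3, without fl/fl libraries 1 and 2 or with a skeletal muscle score as a covariate (15 to 18 chains had an unadjusted p under 0.05 in those fits). The count was 3 without cKO library 1, 14 without cKO library 3 or fl/fl library 3, and 13 without untreated library 2. Between the MC903 control groups, fl/fl against isotype, 5 chains were called, 1 higher and 4 lower, against 5.22% of all genes (1.25% higher, 3.97% lower). In 14 chains every fl/fl library was below every isotype library, while 12% of all genes lay higher and 20.5% lower without overlap, 32.5% together. Col7a1 (-2.05 ± 0.43, adjusted p = 0.035), Col16a1 (-1.67 ± 0.41, adjusted p = 0.04) and Col11a1 (-2.86 ± 0.75, adjusted p = 0.044) were lower in fl/fl, and Col19a1 was at least 18.3-fold lower (adjusted p = 0.039). Col14a1 was higher (2.48 ± 0.66, adjusted p = 0.047), and with RLE scaling, where 4 chains were lower, it was not called. Its level in fl/fl library 3, 8.63 CPM, lay within the isotype range of 5.36 to 11.9, and its call was kept in 4 of 25 settings. These groups differ in genotype, injections and, by the labels, age. They also differ in tissue content, with skeletal muscle markers at 0.838% to 4.64% of counts in fl/fl and 0.122% to 0.178% with isotype. Salivary transcripts were held by fl/fl libraries 1 and 2. The source of the difference thus cannot be told apart. With the skeletal muscle score as a covariate 2 of the 5 calls were kept. Leaving out any single isotype library, fl/fl library 1 or 2 or MAR1 library 3 ended all 5 calls in edgeR (10 to 15 chains had an unadjusted p under 0.05), and 1 was left without cKO library 1 or MAR1 library 1. The count was 9 without cKO library 2 or untreated library 2, and 8 without fl/fl library 3. Any difference among the 5 groups was called for 28 chains, where 58.9% of all genes were called. Among those not called were Col6a3, Col12a1 and Col18a1 (adjusted p = 0.83, 0.072 and 0.15).

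The remaining chains were called in no pairwise comparison. Col15a1, a multiplexin of basement membranes, was at 83.6 and 143 CPM in untreated skin, 25.5, 17.1 and 20.8 with isotype, 28.1, 28.3 and 22.5 with MAR1, 30.7, 71.9 and 6 in fl/fl and 75.7, 60.1 and 35.2 in cKO. It lay lower in every isotype library than in untreated skin (-2.42 ± 0.66, adjusted p = 0.068). Col6a6, a minor beaded filament chain, was at 7.58 and 16.6 CPM in untreated skin and 0.856, 0.922 and 0.614 with isotype (-3.91 ± 1.01, adjusted p = 0.053), and at 4.9, 2.72 and 3.46 with MAR1. Col6a4, another minor chain of that class, was at 0 and 0.332 CPM in untreated skin and 2.95 to 4.77 with isotype (4.64 ± 1.63, adjusted p = 0.15). Col13a1, a transmembrane chain, was at 4.18, 5.92 and 3.12 CPM in cKO against 0.819, 1.16 and 1.42 in fl/fl (1.96 ± 0.71, adjusted p = 0.068). Col8a2, a network chain, reached 19.3 CPM, and Col4a4, Col6a5, Col8a1, Col9a3, Col11a2 and Col20a1 stayed at or under 8.68 CPM in every library.

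Related genes are given beside the background of MAR1 against isotype, where 26.5% of all genes fell and 22.6% rose. Of 18 genes for modification and folding in the endoplasmic reticulum, 10 fell and 1 rose against isotype, with a median log2 fold change of -1.34 beside 0.00 for all genes. The isomerase Ppib, which helps prolines turn during folding, was at 16.8, 25.2 and 18.3 CPM against 178, 148 and 180 (-3.07 ± 0.44, adjusted p = 3.0e-04), and the prolyl 4-hydroxylase beta subunit P4hb fell (-2.05 ± 0.37, adjusted p = 7.8e-04). The prolyl 4-hydroxylase alpha subunit P4ha2 rose, at 114, 137 and 163 against 20.2, 15.7 and 18.4 (2.93 ± 0.41, adjusted p = 2.8e-04), and it also rose in cKO, at 57, 22.2 and 50.8 against 9.44, 15.7 and 6.8 (2.02 ± 0.40, adjusted p = 0.0048). Of 12 tested genes for procollagen processing and crosslinking, 7 fell and 2 rose with MAR1. The crosslinking enzyme Lox was at 21.4, 12.7 and 10.8 against 165, 214 and 219 (-3.73 ± 0.53, adjusted p = 2.9e-04), the proteinase enhancer Pcolce fell (-2.52 ± 0.48, adjusted p = 0.001) and so did Loxl4, a relative of Lox (-3.55 ± 0.74, adjusted p = 0.0019).

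With isotype against untreated skin, where 1.35% of all genes were called higher and 1.72% lower, 3 of these 12 processing genes fell. They were Pcolce, at 54.7, 38.9 and 50 CPM against 212 and 281 (-2.36 ± 0.50, adjusted p = 0.024), Pcolce2 (-1.90 ± 0.39, adjusted p = 0.022) and the procollagen N-proteinase Adamts14 (-1.79 ± 0.42, adjusted p = 0.034). Serpinh1, the collagen chaperone, fell as well, from 454 and 574 to 135, 111 and 156 CPM (-1.94 ± 0.49, adjusted p = 0.048). In fl/fl against untreated skin P4ha2 fell (-2.22 ± 0.42, adjusted p = 0.018). Of 10 collagen receptor and uptake genes, 4 fell and 1 rose with MAR1, a share near the 49% called over all genes. Those with the smallest p were the integrin subunits Itgb1 (-2.65 ± 0.41, adjusted p = 3.9e-04) and Itga2 (-1.76 ± 0.38, adjusted p = 0.0023) and the collagen-binding kinase Ddr1 (-2.93 ± 0.55, adjusted p = 0.0011). Of 12 genes of the TGF-beta pathway, which drives collagen production, 9 fell and 1 rose with MAR1, beside 26.5% and 22.6% of all genes. Smad4 (-1.74 ± 0.32, adjusted p = 9.0e-04) and Smad3 (-2.00 ± 0.41, adjusted p = 0.0017), which carry the signal, fell, and Smad7, which inhibits it, rose (1.78 ± 0.33, adjusted p = 8.7e-04). In cKO against fl/fl, where 12.7% of all genes were called higher and 5.97% lower, Tgfb1 (-1.44 ± 0.34, adjusted p = 0.011) and the receptor Tgfbr2 (-1.38 ± 0.37, adjusted p = 0.02) fell. Calls of related genes and of cell type markers come from the main fit only. They were not checked under other settings or with libraries left out, as those of the chains were.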

How the data were processed

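Bulk polyA RNA-seq of mouse neck skin was analysed in 14 libraries. The authors deposited estimated counts per gene symbol, with decimals and not normalized. Per the submitters' processing notes, the build was GRCm39 and the tools included DESeq2 1.44.0 and Salmon 1.2.1, with no role given; the way the gene table was made is not given in the sources used here. An entry with no gene name, 0.0137% to 0.913% of counts, was left out. Counts were rounded and fitted in edgeR 4.0.16 (quasi-likelihood F test, robust, TMM scaling, filterByExpr) with R 4.3.3 over all 14 libraries and 5 group means, which left 9 residual degrees of freedom and 20939 genes tested. P-values were adjusted by Benjamini-Hochberg over all of them, with a threshold of 0.05. CPM are TMM-scaled, and SE is the log2 fold change over the square root of F. A fold against a group without counts is a bound at 3 counts per library, and intervals of this kind cover counting error only. Exon lengths came from a GENCODE annotation of another build and serve for levels per kb only. Chain ratios used raw counts and two-sided exact permutation tests (scipy 1.17.1). The script was tested on simulated data.

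The members, the gene lists and the tests were chosen with earlier results of these data known. Values per library are given for 15 chains picked for their place in skin and for called chains (the 6 with the largest change where over 6 were called, at a mean of at least 1 CPM), and for up to 3 genes with the smallest p of each related list. Col27a1, Col4a3, Col5a3, Col23a1, Col28a1, Col4a5, Col4a6 and the low chains were named after their values were seen. Alternatives were RLE scaling, DESeq2 1.42.0, other filters, fewer groups, summed untreated libraries, a replicate block, covariates, thinning and left-out libraries. By the series' design text each sample is 1 mouse, and on that reading p-values measure the spread between mice. The names of the untreated libraries differ only by a suffix, so whether they came from separate mice could not be checked. Replicate libraries of every group differed by more than sampling noise.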

Additional observations from a re-analysis of the deposited data

Results flagged for a closer look

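The effect of cKO against fl/fl and that of MAR1 against isotype differed, by edgeR's test of the difference itself, for 7 chains. The difference in log2 fold change was 4.61 ± 0.86 for Col4a2 (SE, adjusted p = 0.021), 3.63 ± 0.68 for Col17a1 (adjusted p = 0.02), 2.90 ± 0.65 for Col5a2 (adjusted p = 0.027), 2.82 ± 0.58 for Col16a1 (adjusted p = 0.023), 2.78 ± 0.75 for Col4a1 (adjusted p = 0.041) and 2.66 ± 0.60 for Col7a1 (adjusted p = 0.027). It was -3.49 ± 0.92 for Col14a1 (adjusted p = 0.039). Col4a1, Col4a2, Col5a2 and Col17a1 were lower in all 3 MAR1 libraries than in any isotype library and overlapped between cKO and fl/fl. Col7a1 and Col16a1 were higher in all 3 cKO libraries than in any fl/fl library and overlapped between MAR1 and isotype.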

How the results depend on the processing

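Groups held 2 or 3 libraries. Thinned to the shallowest library, 17 of the 18 calls in MAR1 against isotype, all 8 in cKO against fl/fl and 0 of the 5 in fl/fl against isotype were kept. Without fl/fl libraries 1 and 2, the lone fl/fl library is assumed to vary like the other groups. Over 25 settings, the 40 calls of named chains in the main fits gave 1000 estimates: 782 stayed called in the same direction, 210 were no longer called and 8 turned sign. The 70 estimates of named chains that were not called gave 1750: 1556 stayed as they were, 72 became called and 122 turned sign. The counts of chains called in MAR1 against isotype stayed within 1.5 times the count of 18 under every setting but the receptor gene share. The cause of these changes was not tested. Counts of chains called under an alternative setting, here and in the results above, come without the share of all genes called under it, except where stated. They therefore do not tell a change in the chains from a change in the whole fit. No alternative with only the compared groups exists for any difference, which uses all of them. Class shares and chain ratios moved by less than the spread between libraries when 1 library was left out. Leaving out 1 of 2 or 3 libraries cannot move a mean by more than that spread, so this did not test their stability. Class shares had no other alternative, and the ratios were otherwise only recomputed with 0.5 counts added.

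Replicate numbers in the titles do not pair the libraries: the correlations of same-numbered libraries' deviations from their group means were -0.14, -0.09 and 0.06 for MAR1 and isotype and 0.08, 0.03 and -0.06 for cKO and fl/fl. With the replicate number as a block, 18 chains were called in MAR1 against isotype, 7 in cKO against fl/fl, 5 in the difference between effects and 23 in any difference.

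With no filter on low counts, the chains called numbered 2 in isotype against untreated, 2 in fl/fl against untreated and 3 in fl/fl against isotype. With a filter of at least 1 CPM in 3 libraries, the chains called numbered 2 in isotype against untreated. With only the compared groups in the fit, the chains called numbered 16 in isotype against untreated, 0 in fl/fl against untreated (10 at an unadjusted p under 0.05), 5 in cKO against fl/fl and 1 in fl/fl against isotype. With the untreated libraries summed, the chains called numbered 0 in isotype against untreated (11 at an unadjusted p under 0.05), 2 in fl/fl against untreated, 13 in the difference between effects and 9 in fl/fl against isotype. With the replicate number as a block, the chains called numbered 0 in isotype against untreated (14 at an unadjusted p under 0.05), 0 in fl/fl against untreated (18 at an unadjusted p under 0.05) and 0 in fl/fl against isotype (12 at an unadjusted p under 0.05). With the receptor gene share as a covariate, the chains called numbered 0 in MAR1 against isotype (1 at an unadjusted p under 0.05), 0 in cKO against fl/fl (5 at an unadjusted p under 0.05), 13 in the difference between effects, 0 in fl/fl against isotype (11 at an unadjusted p under 0.05) and 7 in any difference. With the muscle score as a covariate, the chains called numbered 0 in the difference between effects (15 at an unadjusted p under 0.05) and 3 in fl/fl against isotype. Thinned to the shallowest library, the chains called numbered 2 in isotype against untreated, 2 in fl/fl against untreated and 0 in fl/fl against isotype (12 at an unadjusted p under 0.05). Without fl/fl libraries 1 and 2, the chains called numbered 9 in isotype against untreated, 7 in fl/fl against untreated, 3 in cKO against fl/fl, 0 in the difference between effects (17 at an unadjusted p under 0.05) and 0 in fl/fl against isotype (13 at an unadjusted p under 0.05). With DESeq2, the chains called numbered 12 in isotype against untreated, 13 in fl/fl against untreated, 13 in the difference between effects and 10 in fl/fl against isotype.

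Leaving out 1 library at a time, the number of chains called ranged from 0 to 8 in isotype against untreated, 0 to 8 in fl/fl against untreated, 5 to 10 in cKO against fl/fl, 0 to 14 in the difference between effects and 0 to 9 in fl/fl against isotype.

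With RLE scaling, the sign turned in MAR1 against isotype Col12a1 (0.11), Col6a3 (0.27) and Col7a1 (0.47), and in the difference between effects Col12a1 (-0.36) and Col6a3 (-0.15). With a filter of at least 1 CPM in 3 libraries, the sign turned in isotype against untreated Col18a1 (-0.01), and in the difference between effects Col12a1 (-0.01). With only the compared groups in the fit, the sign turned in isotype against untreated Col18a1 (-0.03), and in MAR1 against isotype Col7a1 (0.01), and in the difference between effects Col12a1 (-0.24) and Col6a3 (-0.01). With the untreated libraries summed, the sign turned in cKO against fl/fl Col12a1 (0.15), Col3a1 (0.14), Col4a1 (0.19), Col4a2 (0.20), Col5a1 (0.24) and Col6a1 (0.11), and in fl/fl against isotype Col6a2 (-0.40) and Col6a3 (-0.42). With the replicate number as a block, the sign turned in isotype against untreated Col5a2 (0.09), and in fl/fl against isotype Col6a2 (-0.16) and Col6a3 (-0.22). With the receptor gene share as a covariate, the sign turned in isotype against untreated Col17a1 (0.22) and Col5a2 (0.26), and in MAR1 against isotype Col12a1 (0.93), Col19a1 (-2.40), Col22a1 (-1.04), Col25a1 (-1.98), Col26a1 (-0.19) and Col5a1 (0.42), and in cKO against fl/fl Col12a1 (1.14), Col22a1 (-0.92), Col26a1 (-0.27), Col3a1 (1.16), Col4a1 (1.59), Col4a2 (1.45), Col5a1 (1.12), Col6a1 (1.44), Col6a2 (1.11) and Col6a3 (-0.23), and in fl/fl against isotype Col3a1 (-0.45), Col5a1 (-0.20) and Col6a2 (-0.96). With the muscle score as a covariate, the sign turned in isotype against untreated Col18a1 (-0.09), and in cKO against fl/fl Col17a1 (-0.76) and Col18a1 (-0.19), and in the difference between effects Col12a1 (-0.27), and in fl/fl against isotype Col18a1 (0.03) and Col6a3 (-0.36). Thinned to the shallowest library, the sign turned in isotype against untreated Col18a1 (-0.05), and in MAR1 against isotype Col7a1 (0.13), and in the difference between effects Col12a1 (-0.24). Without fl/fl libraries 1 and 2, the sign turned in isotype against untreated Col5a2 (0.02), and in cKO against fl/fl Col12a1 (0.98), Col14a1 (0.48), Col17a1 (-0.11), Col3a1 (1.49), Col4a1 (0.56), Col4a2 (0.57), Col5a1 (1.64), Col6a1 (0.93) and Col6a2 (1.00), and in fl/fl against isotype Col14a1 (-0.30), Col3a1 (-1.28), Col5a1 (-1.22), Col6a2 (-1.44) and Col6a3 (-2.59). With DESeq2, the sign turned in MAR1 against isotype Col12a1 (0.11), Col6a3 (0.27) and Col7a1 (0.47), and in the difference between effects Col12a1 (-0.36) and Col6a3 (-0.15).

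Leaving out 1 library at a time turned the sign, with these ranges of log2 estimates, in isotype against untreated Col18a1 (-0.04 to 0.52), Col5a2 (-0.33 to 0.40), Col6a3 (-1.08 to 0.81) and Col7a1 (-0.26 to 1.36), and in fl/fl against untreated Col18a1 (-0.57 to 0.11) and Col6a3 (-1.29 to 0.39), and in MAR1 against isotype Col7a1 (-0.35 to 0.11), and in cKO against fl/fl Col12a1 (-0.35 to 0.47), Col18a1 (-0.23 to 0.51), Col1a2 (-0.04 to 1.16), Col3a1 (-0.49 to 0.49), Col4a1 (-0.44 to 0.34), Col4a2 (-0.60 to 0.45), Col5a1 (-0.40 to 0.99), Col6a1 (-0.61 to 0.37), Col6a2 (-0.94 to 0.43) and Col6a3 (-0.18 to 0.87), and in the difference between effects Col12a1 (-0.24 to 0.89), and in fl/fl against isotype Col3a1 (-0.26 to 0.76), Col5a1 (-0.55 to 0.73), Col6a2 (-0.83 to 0.19) and Col6a3 (-0.75 to 0.29).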
